A study of Mus musculus with 8 samples.

Results

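The diet by arsenite interaction asks whether arsenite in the drinking water changed liver transcripts differently on a high-fat diet than on a low-fat one. For each gene it is the arsenite difference on the high-fat diet (HFD+As minus HFD) minus the arsenite difference on the low-fat diet (LFD+As minus LFD), in log2 signal. A value of 0 means that the effects of both exposures add up on the log2 scale, a negative value that the pools given both lay below that sum, and a positive value that they lay above it. All 8 Affymetrix Mouse Gene 1.0 ST arrays of the series enter the contrast, and its members are the 23410 transcript clusters (the array's unit for a gene) with a gene symbol, of 35556 clusters in all. Of these, 21789 carried exactly 1 symbol and gave 19938 genes, and the 11963 genes with a mean log2 signal above 6.975 were tested.

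The mice were male C57BL/6J animals, 40 in all. HFD+As mice ate a diet with 42% of calories from fat and drank sodium arsenite in water, with 3 mg/L of inorganic arsenic, HFD mice ate the same diet with plain deionized water, LFD+As mice ate a diet with 13% of calories from fat and drank the arsenite water, and LFD mice had that diet and plain water. Exposure lasted 10 weeks per the protocols, while the source label reads 90 days. Each group had 10 mice, measured as 2 pools of 5 livers each (pool 1 and pool 2, the replicate numbers of the labels), so all errors and p-values below describe the spread between pools, and each group mean rests on 2 arrays. Whole liver was used, and in bulk tissue fewer cells of a type and less RNA per cell cannot be told apart.

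The liver makes most plasma proteins, and in inflammation hepatocytes raise the acute phase proteins under interleukin-6 and NF-kappaB signalling. Inorganic arsenite binds thiol groups of proteins and is known to induce metallothioneins, heat shock proteins and the unfolded protein response, and hepatocytes methylate it with the enzyme encoded by As3mt. Fat feeding supplies fatty acids that the liver otherwise makes itself through SREBP1- and LXR-driven lipogenesis, and it is known to bring on low-grade inflammation of the liver.

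A pair of control elements is known from the NF-kappaB and metal response genes described below, and the promoters of 4 members are shown to let a reader see them. The sequences are the 250 bases before the gene start from RefSeq on GRCm38.p6, read 5′ to 3′ on the gene's strand, with motif matches on either strand in capitals. Nfkbia encodes the inhibitor that holds NF-kappaB in the cytoplasm (chr12:55492648-55492897, minus strand), and Tnfaip3 encodes A20, an enzyme that ends NF-kappaB signalling (chr10:19015411-19015660, minus strand, the first of its start sites); capitals mark the NF-kappaB consensus. Mt1 (chr8:94178839-94179088, plus strand) and Mt2 (chr8:94172368-94172617, plus strand) encode metallothioneins, cysteine-rich proteins that bind zinc and other metals; capitals mark the core of the metal response element, searched as TGCACNC or TGCGCNC.
Nfkbia: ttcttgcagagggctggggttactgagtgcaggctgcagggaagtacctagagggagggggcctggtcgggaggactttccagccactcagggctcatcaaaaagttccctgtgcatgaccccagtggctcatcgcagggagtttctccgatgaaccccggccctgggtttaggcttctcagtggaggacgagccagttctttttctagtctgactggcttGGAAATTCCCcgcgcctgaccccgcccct
Tnfaip3: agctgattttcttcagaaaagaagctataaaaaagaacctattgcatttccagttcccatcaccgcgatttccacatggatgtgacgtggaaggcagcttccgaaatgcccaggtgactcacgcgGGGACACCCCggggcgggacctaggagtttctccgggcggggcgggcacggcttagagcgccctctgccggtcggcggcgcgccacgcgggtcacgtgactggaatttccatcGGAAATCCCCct
Mt1: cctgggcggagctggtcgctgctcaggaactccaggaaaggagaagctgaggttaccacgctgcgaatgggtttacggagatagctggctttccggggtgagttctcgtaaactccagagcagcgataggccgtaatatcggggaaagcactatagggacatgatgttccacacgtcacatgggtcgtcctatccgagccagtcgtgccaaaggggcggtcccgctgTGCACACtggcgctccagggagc
Mt2: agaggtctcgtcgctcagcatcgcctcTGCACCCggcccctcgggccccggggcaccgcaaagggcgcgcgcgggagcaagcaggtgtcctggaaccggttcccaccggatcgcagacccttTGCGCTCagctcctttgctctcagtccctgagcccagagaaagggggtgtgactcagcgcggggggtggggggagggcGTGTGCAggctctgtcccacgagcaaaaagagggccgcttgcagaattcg
The NF-kappaB consensus occurred 1 time in the Nfkbia window and 2 times in that of Tnfaip3, and 8 of 21 chemokine, cytokine and NF-kappaB genes with a promoter had a match, against 7.3% of all 32851 promoters. Among acute phase genes 1 of 24 had one. The windows of Lcn2, Saa1, Lrg1 and Icam1 and of the second Tnfaip3 start site were searched as well and held no match. The metal response core occurred 1 time in Mt1 and 3 times in Mt2, in 6 of 14 metallothionein and heat shock genes with a promoter, and in 21.4% of all promoters. These matches describe letters in a window and are not evidence of binding.

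No single gene passed the test for interaction. With limma, 0 of 11963 genes (0%) had an adjusted p under 0.05, and the lowest adjusted p was 0.0591, shared by 7 genes. At an unadjusted p under 0.05 there were 1659 genes (13.9%), 1480 negative (12.4%) and 179 positive (1.5%). The median interaction was -0.12 and 68.4% of genes were negative, with 90% of genes between -0.53 and 0.27 (5th and 95th percentile). An interaction of at least 1 log2 unit in size was found in 54 genes, 41 of them negative. The split between signs depended on scaling. The array medians over the tested genes themselves had an interaction of -0.19. With every array centred on its own median over these genes, the median interaction was 0.07. Of the genes at an unadjusted p under 0.05, 32.6% were then negative, against 89.2% as deposited. With 1 array left out, the median over all genes lay between -0.19 and -0.06. The 95% interval of an interaction reached 0.386 to either side at the median gene, so an uncalled gene is not shown to be additive. With each array left out, the number called was between 0 and 23, the highest without LFD+As pool 2 (23) and HFD pool 2 (17), and it was 12 with a prior variance that follows the mean.

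Arsenite passed the test for far more genes on the high-fat than on the low-fat diet, but those counts rest on single arrays, and the difference between the diets is the interaction itself, which no gene passed. HFD+As differed from HFD in 434 genes (3.63%), 45 higher (0.376%) and 389 lower (3.25%), and LFD+As differed from LFD in 8 genes (0.0669%), 3 higher (0.0251%) and 5 lower (0.0418%). The count on the high-fat diet was 25 without HFD pool 1, 24 without HFD+As pool 1, 135 without either LFD array, 1121 without HFD pool 2, and 68 with the arrays centred on their medians, of which 46 were higher. The count on the low-fat diet was 0 without LFD pool 1, 1 without LFD+As pool 1, 26 without LFD+As pool 2 and 15 without either HFD array. The 389 genes lower on the high-fat diet had a median of -0.59 there and of -0.04 on the low-fat diet, where 247 were below 0 and 142 above. The 45 higher genes had a median of 0.69 there and of 0.12 on the low-fat diet, where 32 were above 0. Across all tested genes the arsenite differences on the 2 diets, which share no array, had a Pearson correlation of 0.035, and 50.4% of genes had opposite signs. Of the genes with a negative interaction at an unadjusted p under 0.05, 1150 of 1480 had arsenite differences of opposite sign on the diets, and so had 140 of 179 with a positive one. Choosing genes by the difference between these 2 values by itself favours opposite signs. These 2 counts therefore do not show that arsenite acted in opposite directions on the diets.

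**Figure D1:**
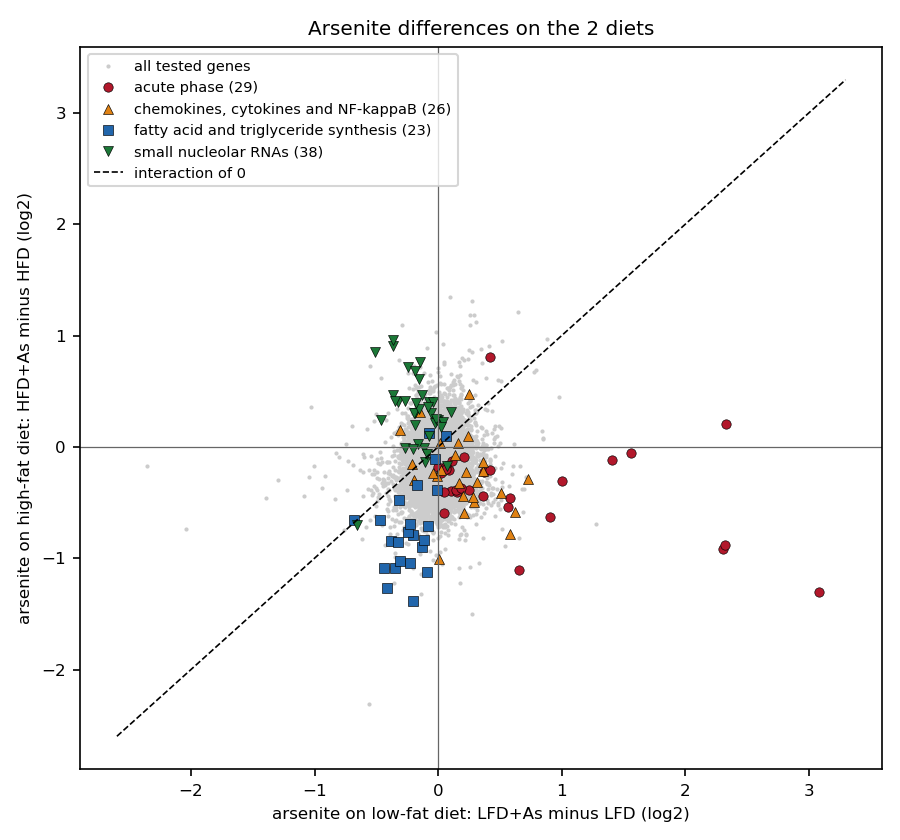
Arsenite difference on the low-fat diet (x axis, LFD+As minus LFD, log2) against that on the high-fat diet (y axis, HFD+As minus HFD, log2) for 11963 genes, with 4 gene lists in colour and the dashed line marking an interaction of 0. Acute phase genes lie mostly right of and below the origin, fatty acid synthesis genes below it, and small nucleolar RNAs mostly above the line.

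Acute phase genes were the group with the most negative median among the 30 gene lists other than cell markers. Of 29 tested members 28 were negative, with a median of -0.62 against -0.12 over all genes, and 21 had an unadjusted p under 0.05 and a negative value (12.4% of all genes did). With arrays centred on their medians the list's median was -0.43, with the span trend removed -0.69, and with any 1 array left out it lay between -0.70 and -0.54 with 17 to 20 members at an unadjusted p under 0.05. Each exposure on its own went with higher levels: the high-fat diet on plain water gave values above 0 in 29 of 29 members (median 0.54), and arsenite on the low-fat diet in 28. Both differences subtract the same LFD pools, which also enter the interaction, so these counts and the negative interactions are not independent. Under arsenite the diet difference had a median of -0.09, and arsenite on the high-fat diet gave values below 0 in 27. The pools given both exposures thus lay below HFD in 27 members and, by the median, below LFD+As.

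Lcn2, which encodes a siderophore-binding protein that withholds iron from bacteria, was the member of this list with the lowest adjusted p. Its log2 signal was 11.57 and 12.06 in HFD+As, 12.49 and 12.97 in HFD, 12.54 and 11.40 in LFD+As, and 9.05 and 10.28 in LFD. All 6 exposed pools lay above both LFD pools, and the pools with both exposures did not lie above those with one. The interaction was -3.22 (SE 0.52, 95% interval -4.34 to -2.10, adjusted p = 0.0591) and lay between -3.84 without LFD pool 2 and -2.61 without LFD pool 1. Additivity would have placed HFD+As at 15.04, against a measured mean of 11.81. On the low-fat diet arsenite raised Lcn2 by 2.31 (adjusted p = 0.0396); that call was lost without LFD pool 1 (1.69), without LFD+As pool 1 (1.73) and without either HFD+As array, while the value on the high-fat diet was -0.92 (adjusted p = 0.142).

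Saa1 and Saa2 encode serum amyloid proteins, which ride on high-density lipoprotein in inflammation. Saa1 had the interaction of largest size among all tested genes, and these genes had the widest errors among the named genes. Saa1 stood at 9.07 and 8.88 in HFD+As, 10.08 and 10.48 in HFD, 10.07 and 8.66 in LFD+As, and 5.04 and 7.51 in LFD. The LFD pools were lowest and lay 2.47 apart, farther than those of any other group. The interaction of Saa1 was -4.39 (95% interval -6.12 to -2.66, adjusted p = 0.103), -3.16 without LFD pool 1 and -5.63 without LFD pool 2. Saa2, taken up after its values were seen, was at -3.21 (adjusted p = 0.221), -1.63 without LFD pool 1 and -4.78 without LFD pool 2. Lcn2, Mt2 and Saa2 were the 3 tested genes whose additive level would exceed the highest value in the table, 14.8. All 3 are on the acute phase list, so Mt2 counts there and in the metallothionein and heat shock list.

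Other acute phase genes had negative values of smaller size. Lbp, which encodes the lipopolysaccharide-binding protein, had 11.22 and 11.83 in HFD+As, 12.32 and 11.99 in HFD, 12.11 and 11.77 in LFD+As, and 11.07 and 10.99 in LFD. Its interaction was -1.54 (95% interval -2.10 to -0.98, adjusted p = 0.0635), and the LFD pools were again lowest. Lrg1, a leucine-rich glycoprotein secreted by the liver in inflammation and not on the list, had 12.35 and 12.44 in HFD+As, 13.14 and 12.83 in HFD, 12.68 and 12.39 in LFD+As, and 11.74 and 11.96 in LFD. Its HFD+As pools overlapped the LFD+As range and lay below both HFD pools, with an interaction of -1.27 (95% interval -1.71 to -0.84, adjusted p = 0.0591). Hp, which encodes the haemoglobin-binding protein haptoglobin, was at -0.59 (adjusted p = 0.246). Orm2, an orosomucoid plasma protein gene, and Fgl1, a fibrinogen-like hepatokine gene, both chosen after their values were seen, were at -1.77 (adjusted p = 0.149) and -1.04 (adjusted p = 0.17).

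**Figure D2:**
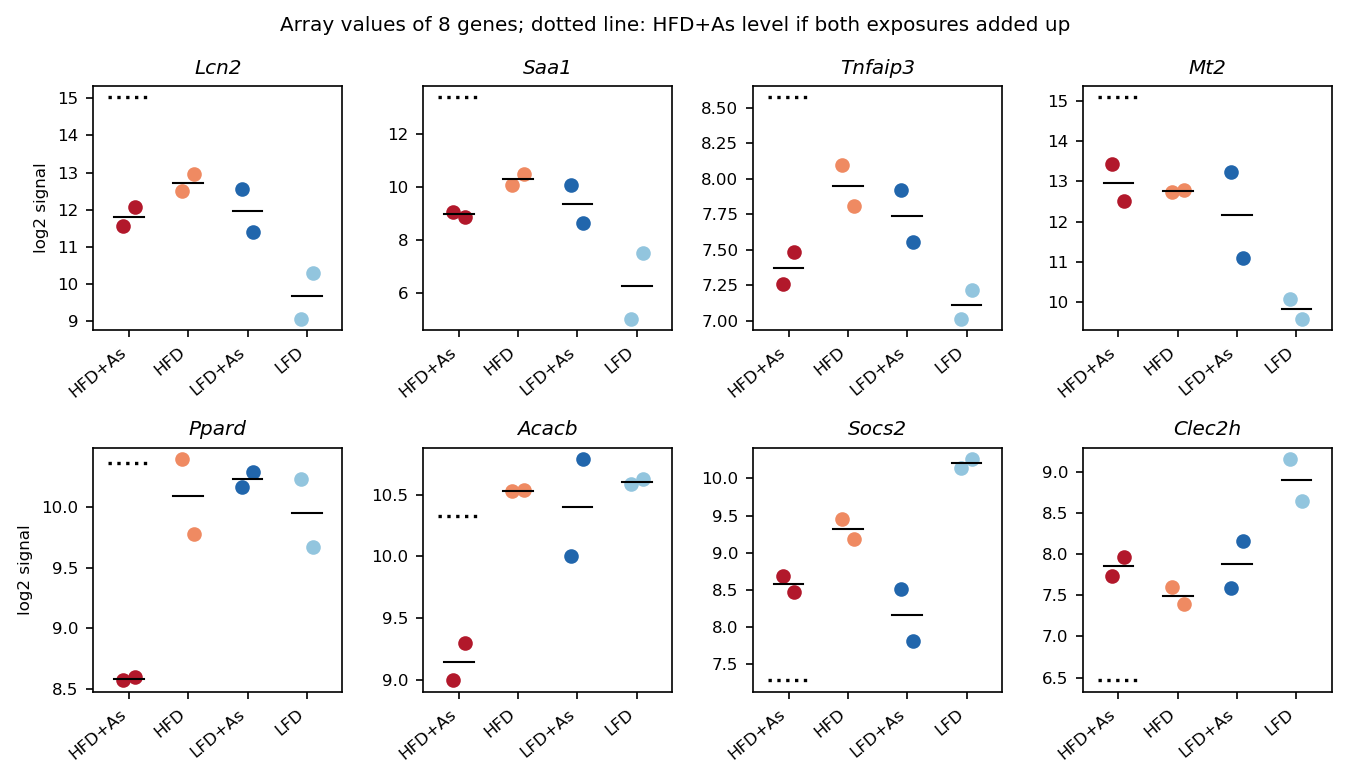
Log2 signal (y axis) of 8 genes in each array (points) with group means (solid lines) for HFD+As, HFD, LFD+As and LFD from left to right; the dotted line is the HFD+As level that additivity would give. Lcn2, Saa1, Tnfaip3 and Mt2 lie below the dotted line in HFD+As with LFD lowest, Ppard and Acacb are low in HFD+As alone, and Socs2 and Clec2h lie above the dotted line with LFD highest.

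Chemokine, cytokine and NF-kappaB genes were mostly negative too. Of 26 tested, 21 were negative with a median of -0.47. At an unadjusted p under 0.05 there were 14 with a negative value and 1 with a positive one (12.4% and 1.5% of all genes). The median was -0.28 with centred arrays and lay between -0.56 and -0.35 with any 1 array left out. The diet on plain water gave values above 0 in 23 members (median 0.30, against 0.04 under arsenite). Tnfaip3, the A20 gene whose promoter is shown above, had 7.26 and 7.49 in HFD+As, 8.10 and 7.81 in HFD, 7.92 and 7.56 in LFD+As, and 7.01 and 7.22 in LFD. Pools with a single exposure lay above all pools with both or with none, and the interaction was -1.20 (95% interval -1.67 to -0.74, adjusted p = 0.0948). Icam1, an adhesion molecule that binds leukocytes, was at -0.92 (95% interval -1.33 to -0.52, adjusted p = 0.117). Among members chosen after their values were seen, Nfkbia was at -0.79 (adjusted p = 0.133) and the chemokine genes Cxcl1 and Ccl2 at -1.01 (adjusted p = 0.17) and -1.36 (adjusted p = 0.174).

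Complement and coagulation genes were mostly negative, though by less. Of 29 tested, 27 were below 0 (68.4% of all genes were) with a median of -0.26, -0.18 without HFD pool 1. At an unadjusted p under 0.05 there were 8 (12.4% of all genes were negative at that p). C8a, a subunit of the membrane attack complex, was at -0.96 (95% interval -1.39 to -0.54, adjusted p = 0.117), and Cfb, factor B of the alternative pathway, at -0.61 (adjusted p = 0.191). Centring the arrays brought the list's median to -0.07, against 0.07 for all genes under the same centring. Interferon-stimulated genes were split between signs, 13 of 24 being negative with a median of -0.08, which was 0.12 with centred arrays and 0.11 without HFD pool 1. Usp18, which restrains interferon signalling, was at 0.71 (adjusted p = 0.208), with 9.13 and 8.77 in HFD+As, 9.13 and 8.94 in HFD, 8.43 and 8.47 in LFD+As, and 9.34 and 9.16 in LFD, the LFD+As pools being lowest.

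Genes of the metal, heat shock and unfolded protein responses were mostly negative, with wide errors for the metallothioneins. Mt2 had 13.43 and 12.51 in HFD+As, 12.74 and 12.78 in HFD, 13.24 and 11.09 in LFD+As, and 10.09 and 9.59 in LFD. Both LFD pools were below every exposed pool, and the LFD+As pools lay 2.15 apart. The interaction of Mt2 was -2.12 (95% interval -3.57 to -0.67, adjusted p = 0.252), -3.20 without LFD+As pool 2 and -1.05 without LFD+As pool 1. Mt1 was at -1.52 (95% interval -2.70 to -0.35, adjusted p = 0.283), -2.38 without LFD+As pool 2 and -0.66 without LFD+As pool 1. Dnajb1, a heat shock co-chaperone, was at -0.86 (adjusted p = 0.176) and Dnajc12, a co-chaperone of the same J-domain family, at -1.25 (adjusted p = 0.208). Of the 18 metallothionein and heat shock genes tested, 14 were negative (median -0.26, -0.07 with centred arrays). At an unadjusted p under 0.05 there were 7 (12.4% of all genes were negative at that p). The median was -0.40 without HFD+As pool 2 and -0.16 without LFD+As pool 1. Arsenite on the high-fat diet gave values above 0 in 9 members and below 0 in 9, and on the low-fat diet above 0 in 17.

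Among 27 genes of the unfolded protein and integrated stress response, 23 were negative with a median of -0.41. At an unadjusted p under 0.05, where 12.4% of all genes were negative, there were 10. That number was 4 without LFD+As pool 1 and 14 without HFD pool 2, and the median was -0.22 with centred arrays and -0.27 without HFD+As pool 1. Arsenite gave values above 0 in 22 members on the low-fat diet and below 0 in 20 on the high-fat diet. Creld2, an endoplasmic reticulum stress gene, had 12.15 and 12.24 in HFD+As, 12.26 and 12.00 in HFD, 12.30 and 12.00 in LFD+As, and 11.36 and 11.25 in LFD. The 3 exposed groups overlapped and lay above LFD, and the interaction was -0.78 (95% interval -1.19 to -0.36, adjusted p = 0.176). Dnajb9, a co-chaperone of the endoplasmic reticulum, was also at -0.78 (adjusted p = 0.208). Sdf2l1 and Manf, chosen after their values were seen, are induced by the same stress and were at -0.70 (adjusted p = 0.277) and -0.47 (adjusted p = 0.282), and Sdf2l1 was at -0.40 without HFD pool 1.

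**Figure D3:**
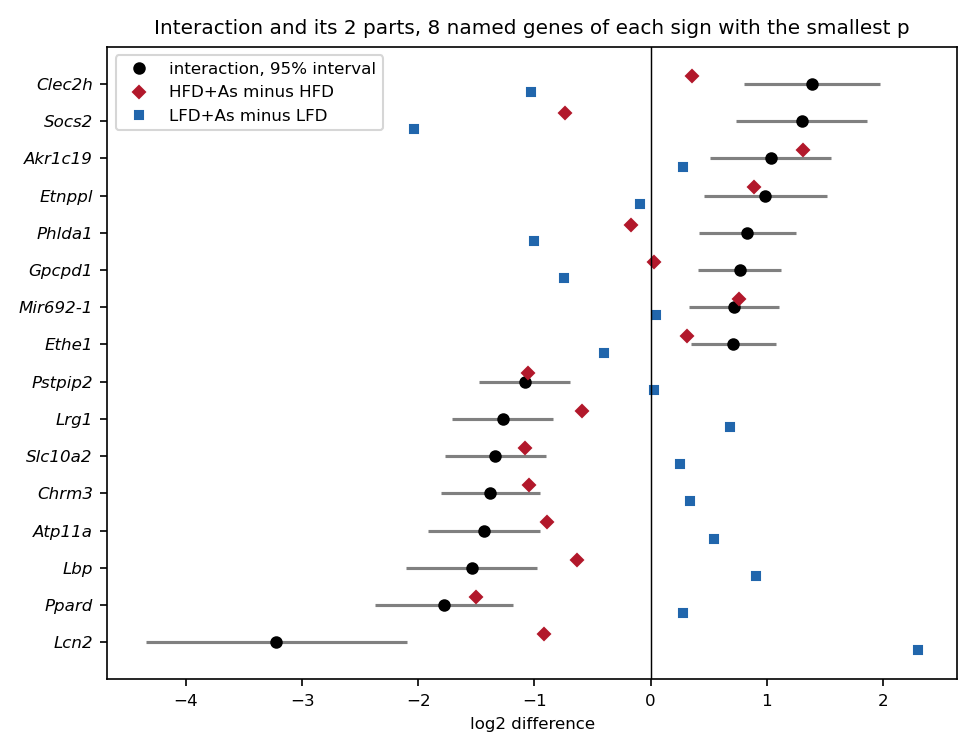
Interaction (black points, 95% interval as a line) with the arsenite difference on the high-fat diet (red diamonds) and on the low-fat diet (blue squares), all in log2 units, for the 8 negative and 8 positive named genes of smallest p. Lcn2, Lbp and Lrg1 have blue squares right of 0, Ppard, Pstpip2, Slc10a2 and Chrm3 have their red diamonds near the interaction itself, and Socs2, Phlda1, Gpcpd1 and Clec2h have blue squares left of 0.

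A second negative pattern came from genes that were low in HFD+As alone. Ppard, which encodes the nuclear receptor PPAR-delta, had 8.57 and 8.60 in HFD+As, 10.40 and 9.78 in HFD, 10.16 and 10.29 in LFD+As, and 10.23 and 9.67 in LFD. Both HFD+As pools lay more than 1 log2 unit below every other pool, whose 3 groups overlapped. The interaction of Ppard was -1.78 (95% interval -2.37 to -1.18, adjusted p = 0.0591). Arsenite lowered it on the high-fat diet (-1.501, adjusted p = 0.00354), a call that held with any 1 array left out, and the value on the low-fat diet was 0.28.

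Fatty acid and triglyceride synthesis genes as a group lay low in HFD+As. Of 23 tested, 20 had a negative interaction with a median of -0.53. At an unadjusted p under 0.05 there were 12 (12.4% of all genes were negative at that p). The median was -0.34 with centred arrays and -0.55 with the span trend removed. With any 1 array left out it lay between -0.76 (without LFD+As pool 1) and -0.34 (without LFD+As pool 2). Arsenite differences were below 0 in 21 members on the high-fat diet and in 22 on the low-fat diet, so the 2 diets differed in size rather than in sign (medians -0.79 and -0.23). On the high-fat diet 15 members fell (3.25% of all genes did), 6 without HFD pool 1, 2 without HFD+As pool 1 and 4 with centred arrays, and on the low-fat diet 0 did.

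Acacb, which makes the malonyl-CoA that restrains fatty acid entry into mitochondria, had 8.99 and 9.30 in HFD+As, 10.53 and 10.54 in HFD, 10.00 and 10.79 in LFD+As, and 10.59 and 10.63 in LFD. The HFD+As pools lay below all others. Its interaction was -1.18 (95% interval -1.78 to -0.58, adjusted p = 0.17), -1.57 without LFD+As pool 1 and -0.79 without LFD+As pool 2, and the LFD+As pools stood 0.79 apart. Elovl5, which lengthens polyunsaturated fatty acids, had 12.21 and 12.20 in HFD+As, 13.45 and 13.21 in HFD, 12.65 and 13.11 in LFD+As, and 13.02 and 12.92 in LFD, with an interaction of -1.04 (95% interval -1.49 to -0.58, adjusted p = 0.117). Scd1, the main stearoyl-CoA desaturase gene of liver, had 13.14 and 12.97 in HFD+As, 14.12 and 14.07 in HFD, 13.75 and 14.04 in LFD+As, and 14.12 and 14.12 in LFD, with an interaction of -0.81 (95% interval -1.20 to -0.43, adjusted p = 0.149). Both genes were lowest in HFD+As, and their falls with arsenite on the high-fat diet, 1.13 and 1.04, were called with any 1 array left out. Among members chosen after their values were seen, the desaturases Fads1 and Fads2 were at -0.78 (adjusted p = 0.17) and -0.62 (adjusted p = 0.178). The citrate lyase Acly was at -0.86 (adjusted p = 0.282) and the fatty acid synthase Fasn at -0.65 (adjusted p = 0.3), and without LFD+As pool 2 they were at -0.50 and -0.38.

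Cholesterol synthesis genes, which answer to SREBP2, were nearer the level of all genes. Of 20 tested, 19 were negative with a median of -0.22, -0.17 without LFD pool 2. At an unadjusted p under 0.05 there were 6 (12.4% of all genes were negative at that p). Sqle, the squalene epoxidase gene, was at -0.55 (adjusted p = 0.259) and Mvd, a mevalonate pathway enzyme gene, at -0.79 (adjusted p = 0.241), -0.50 without LFD pool 2. The list's median was -0.03 with centred arrays and -0.34 without LFD+As pool 2. Plin2, which coats lipid droplets, was at -0.52 (adjusted p = 0.243), and its list of 17 lipid droplet genes had a median of -0.14 that turned to 0.05 with centred arrays and lay between -0.22 (without HFD+As pool 2) and -0.08 (without HFD pool 1).

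The remaining genes with a negative interaction at the lowest adjusted p belong to no common list. Chrm3, the M3 muscarinic acetylcholine receptor gene, had 7.45 and 7.58 in HFD+As, 8.75 and 8.36 in HFD, 8.01 and 7.91 in LFD+As, and 7.71 and 7.53 in LFD. Its HFD+As pools lay at the level of LFD, below both groups with a single exposure, and the interaction was -1.38 (95% interval -1.80 to -0.95, adjusted p = 0.0591). Slc10a2, the apical sodium-dependent bile acid transporter gene, had 8.60 and 8.90 in HFD+As, 9.85 and 9.81 in HFD, 9.53 and 9.91 in LFD+As, and 9.49 and 9.44 in LFD. The HFD+As pools lay below all others, with an interaction of -1.34 (95% interval -1.77 to -0.90, adjusted p = 0.0591). Arsenite lowered Chrm3 by 1.04 and Slc10a2 by 1.08 on the high-fat diet, calls that were lost without HFD+As pool 1 (-0.98 and -0.94) and held without any other single array.

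Atp11a, a phospholipid flippase gene, was at -1.43 (95% interval -1.91 to -0.95, adjusted p = 0.0591), with 8.38 and 8.62 in HFD+As, 9.63 and 9.14 in HFD, 9.18 and 8.95 in LFD+As, and 8.56 and 8.49 in LFD. HFD+As overlapped LFD, and both single exposures lay above. Pstpip2, an actin-associated adaptor gene of myeloid cells, was at -1.08 (95% interval -1.48 to -0.69, adjusted p = 0.0635) and low in HFD+As alone, with 9.08 and 9.13 there against 10.04 to 10.31 in the other 6 pools. Ccnd1, the cyclin of the G1 phase, was at -0.89 (adjusted p = 0.158), and Chrna4, a nicotinic acetylcholine receptor subunit gene chosen after its values were seen, at -1.75 (95% interval -2.45 to -1.05, adjusted p = 0.103). Chrna4 had 7.68 and 7.85 in HFD+As, 10.02 and 10.13 in HFD, 9.20 and 10.21 in LFD+As, and 10.18 and 10.35 in LFD, so that the HFD+As pools lay apart from all others. Arsenite lowered Pstpip2 by 1.05, Ccnd1 by 1.09 and Chrna4 by 2.31 on the high-fat diet, each with any 1 array left out as well.

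Positive interactions were fewer, and the leading named ones came from genes that were lower with either exposure alone. Of the 10 genes with an adjusted p under 0.1, 9 were negative. The other was positive, shared the lowest adjusted p of 0.0591 and was left unnamed as a predicted gene. Socs2, whose product restrains growth hormone signalling, had 8.69 and 8.47 in HFD+As, 9.45 and 9.19 in HFD, 8.51 and 7.82 in LFD+As, and 10.14 and 10.27 in LFD. LFD was highest, and both arsenite groups overlapped. The interaction of Socs2 was 1.30 (95% interval 0.73 to 1.86, adjusted p = 0.117), 1.64 without LFD+As pool 1 and 0.95 without LFD+As pool 2. Socs2 was the 1 gene called for arsenite on both diets: it fell by 2.04 on the low-fat diet (adjusted p = 0.000546, lost without LFD pool 1 at -2.10) and by 0.74 on the high-fat diet (adjusted p = 0.0481, held with HFD pool 2 or either LFD+As array left out and lost without any other array, at -0.84 to -0.61).

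Clec2h, a C-type lectin-like gene, had 7.74 and 7.96 in HFD+As, 7.60 and 7.39 in HFD, 7.59 and 8.16 in LFD+As, and 9.16 and 8.65 in LFD. The 3 exposed groups lay below LFD at a similar level, with an interaction of 1.39 (95% interval 0.80 to 1.97, adjusted p = 0.116). Gpcpd1, a glycerophosphocholine phosphodiesterase gene, had 9.43 and 9.35 in HFD+As, 9.48 and 9.26 in HFD, 9.34 and 9.34 in LFD+As, and 10.07 and 10.10 in LFD. Its 6 exposed pools lay within 0.22 of each other and below LFD, and the interaction was 0.77 (95% interval 0.41 to 1.12, adjusted p = 0.147). Phlda1, a pleckstrin homology-like gene, was at 0.83 (adjusted p = 0.17). Cyp2b9, a cytochrome P450 gene with higher expression in female liver, had 6.54 and 6.82 in HFD+As, 6.82 and 6.88 in HFD, 6.21 and 7.20 in LFD+As, and 9.91 and 8.21 in LFD. Its means in HFD+As (6.68), HFD (6.85) and LFD+As (6.71) lay under the filter value of 6.975, so it entered the test through LFD alone and had to differ. Its interaction of 2.19, which was 1.34 without LFD pool 1 and 3.04 without LFD pool 2, is therefore given as a description.

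Among other positive genes, Akr1c19, Etnppl and Ethe1 were lowest in HFD, and only Akr1c19 had HFD+As pools that overlapped those of LFD. Akr1c19, an aldo-keto reductase gene, had 10.13 and 10.75 in HFD+As, 9.08 and 9.19 in HFD, 10.41 and 10.25 in LFD+As, and 10.18 and 9.92 in LFD. The HFD pools lay below all others, and the interaction was 1.03 (95% interval 0.51 to 1.56, adjusted p = 0.17). Arsenite raised Akr1c19 by 1.31 on the high-fat diet (adjusted p = 0.00354), with any 1 array left out as well, while the value on the low-fat diet was 0.28. Etnppl, which breaks down phosphoethanolamine, was at 0.99 (adjusted p = 0.177), and Ethe1, a mitochondrial enzyme of sulfide oxidation, at 0.71 (adjusted p = 0.17). The HFD+As pools of Etnppl (10.36 and 10.54) lay below every pool on the low-fat diet. For Ethe1 the HFD+As pools (10.33 and 10.10) overlapped LFD+As (10.21 and 10.29), and both groups lay below LFD (10.70 and 10.60). The cluster annotated as the microRNA gene Mir692-1 was at 0.72 (adjusted p = 0.178), and at 0.40 with the span trend removed. The HFD+As pools of Mir692-1 lay above all others. Nqo1, the quinone reductase target of NRF2, was at 1.25 (95% interval 0.35 to 2.14, adjusted p = 0.264) with 7.83 and 9.03 in HFD+As, 7.12 and 7.04 in HFD, 7.79 and 7.42 in LFD+As, and 7.82 and 7.20 in LFD. The value rests on HFD+As pool 2, without which it was 0.65, and the 24 NRF2 and glutathione genes had a median of -0.06 that turned to 0.13 with centred arrays. Among them Hmox1, the haem oxygenase gene, was at -0.37 (adjusted p = 0.42), -0.18 without HFD pool 1 and -0.56 without HFD pool 2.

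Bcl6 and Socs2 had interactions of opposite sign, neither past the test. Bcl6, a transcriptional repressor that opposes STAT5 at liver genes, had 9.05 and 8.04 in HFD+As, 9.53 and 8.94 in HFD, 9.54 and 9.95 in LFD+As, and 8.53 and 8.39 in LFD. The LFD+As pools were highest, and the HFD+As pools, 1.002 apart, spanned those of LFD. The interaction of Bcl6 was -1.97 (95% interval -2.77 to -1.17, adjusted p = 0.103). Cish, a STAT5 target chosen after its values were seen, was at 0.999 (adjusted p = 0.287) and at 0.51 without HFD+As pool 2. The 23 genes of growth hormone signalling and male-biased expression had 13 positive and 10 negative values with a median of 0.05 (0.24 with centred arrays, -0.13 without HFD pool 2 and 0.18 without HFD pool 1). Of 9 female-biased genes tested, 6 were positive with a median of 0.18, 0.02 without HFD+As pool 2 and 0.59 without HFD pool 2.

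Metabolic groups outside lipid synthesis differed in their distance from the median of all genes. Fatty acid oxidation and PPAR-alpha targets had a median of -0.21 (22 of 27 negative, -0.02 with centred arrays). The microsomal omega-hydroxylase gene Cyp4a14 was at 0.43 (adjusted p = 0.424), 0.21 without LFD+As pool 2 and 0.65 without LFD+As pool 1, and Slc25a20, the mitochondrial carnitine carrier gene, at -0.63 (adjusted p = 0.19). Of 26 insulin signalling, gluconeogenesis and fasting genes 24 were negative with a median of -0.30. That median was -0.11 with centred arrays, -0.18 without HFD+As pool 1 and -0.38 without HFD+As pool 2. At an unadjusted p under 0.05 there were 6 with a negative value (12.4% of all genes). Igfbp1, a binding protein of insulin-like growth factors that insulin represses, was at -1.40 (95% interval -2.25 to -0.55, adjusted p = 0.209), -1.88 without LFD+As pool 1 and -0.92 without LFD+As pool 2, and had 9.06 and 9.45 in HFD+As, 10.19 and 10.77 in HFD, 9.05 and 10.01 in LFD+As, and 9.65 and 9.06 in LFD. For Igfbp1 the HFD pools stood above all others.

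The enzymes that handle arsenic gave no interaction past the test. As3mt, the arsenic methyltransferase gene, had 10.28 and 10.71 in HFD+As, 10.65 and 10.94 in HFD, 10.96 and 10.71 in LFD+As, and 10.77 and 10.55 in LFD. The groups overlapped, and the interaction was -0.47 (95% interval -0.96 to 0.01, adjusted p = 0.369), -0.26 without HFD+As pool 1 and -0.69 without HFD+As pool 2. Its list of 22 arsenic methylation and one-carbon genes had a median of -0.12, as all genes did, and of -0.02 without HFD pool 1. Bile acid genes (25 tested, median -0.01), amino acid and urea cycle genes (30, median 0.00) and xenobiotic metabolism genes (24, median 0.00) were split between signs, and with centred arrays their medians were 0.18, 0.19 and 0.19. With 1 array left out, these medians lay between -0.16 and 0.08, -0.13 and 0.08, and -0.07 and 0.08. The bile acid list did not hold the transporter gene Slc10a2, described above at -1.34. Cyp7a1, the rate-limiting enzyme of bile acid synthesis, was at 0.28 (95% interval -0.36 to 0.92, adjusted p = 0.682) and changed sign without LFD+As pool 2 (-0.04) and without HFD pool 1 (-0.02). In the circadian list Nfil3, a repressor of clock output, was at -1.06 (adjusted p = 0.191), -0.66 without LFD pool 2, and Dbp, a clock output activator chosen after its values were seen, at 0.81 (adjusted p = 0.314), 0.32 without HFD pool 1 and 1.29 without HFD pool 2.

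**Figure D4:**
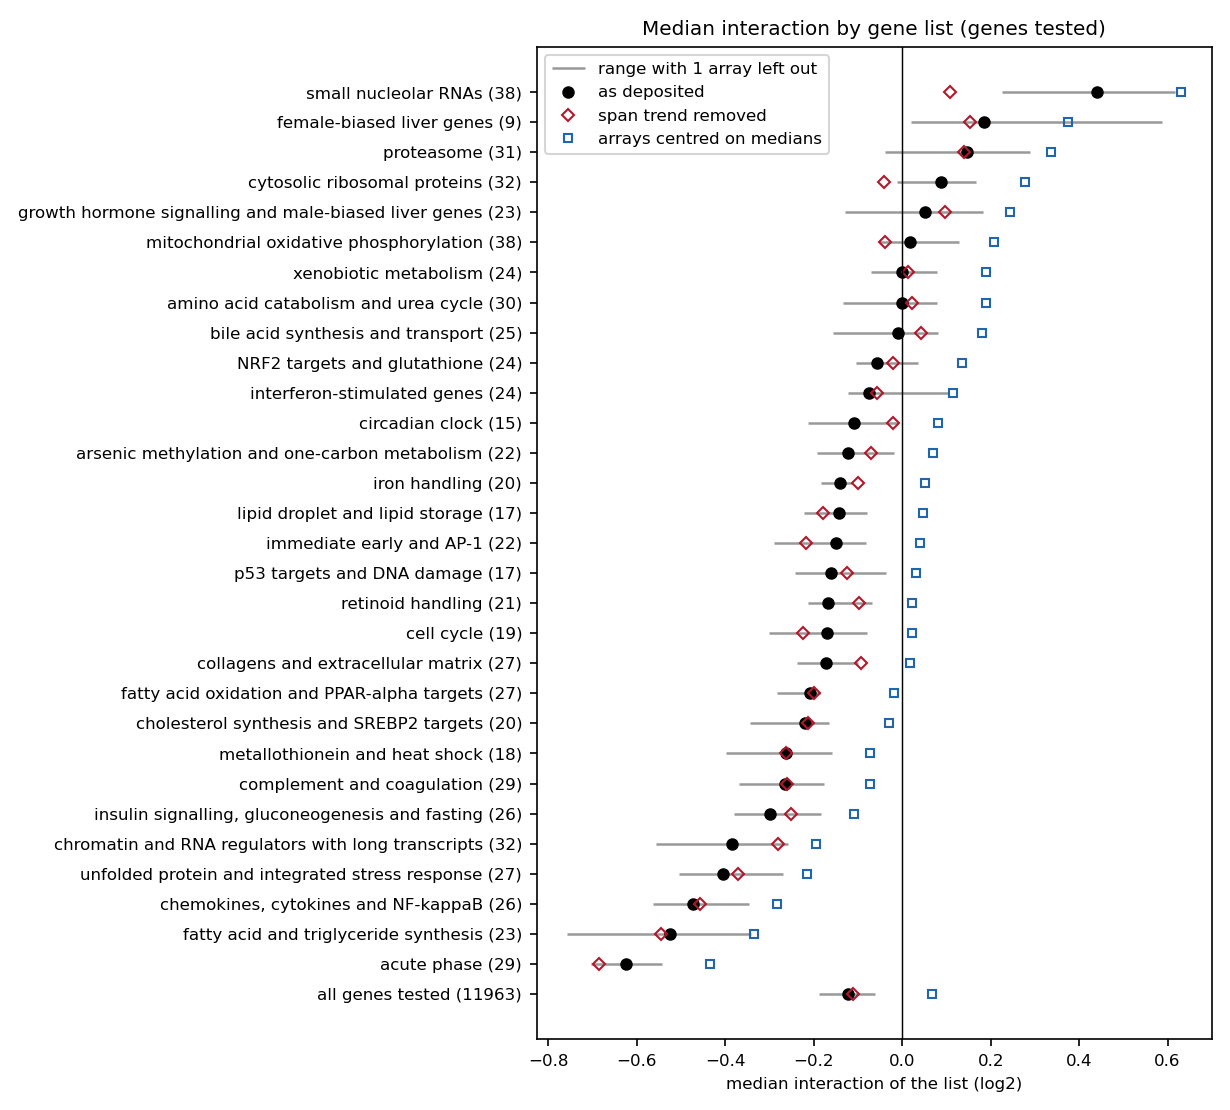
Median interaction (x axis, log2) of 30 gene lists and of all tested genes, with the number of genes tested in parentheses, for values as deposited (black), with the span trend removed (red) and with arrays centred on their medians (blue); grey lines span the medians obtained with any 1 array left out. Acute phase, fatty acid synthesis, chemokine, unfolded protein and chromatin lists stay below 0 throughout. So do the metallothionein, insulin, complement, cholesterol and fatty acid oxidation lists, which come nearer to 0 with centred arrays. Small nucleolar RNAs and female-biased genes stay above 0.

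The interaction also followed the genomic span of genes (first to last base, introns included). Its rank correlation with span over 11958 genes was -0.357, while the arsenite difference on the high-fat diet had -0.399 and that on the low-fat diet 0.01. In 4 equal groups of genes by span, with median spans of 4.3, 14.2, 31.7 and 96.0 kb, the median interaction was 0.03, -0.11, -0.17 and -0.22, and the share with an unadjusted p under 0.05 and a negative value was 5.4, 10.2, 14.1 and 19.8%. Single arrays followed span to different degrees, at -0.454 and -0.293 in HFD+As, 0.245 and -0.136 in HFD, 0.220 and 0.346 in LFD+As, and 0.342 and 0.138 in LFD. The part of RNA quality or labelling in this trend was not tested. With the trend removed, 180 of the 389 genes lower and 22 of the 45 higher with arsenite on the high-fat diet were still called.

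**Figure D5:**
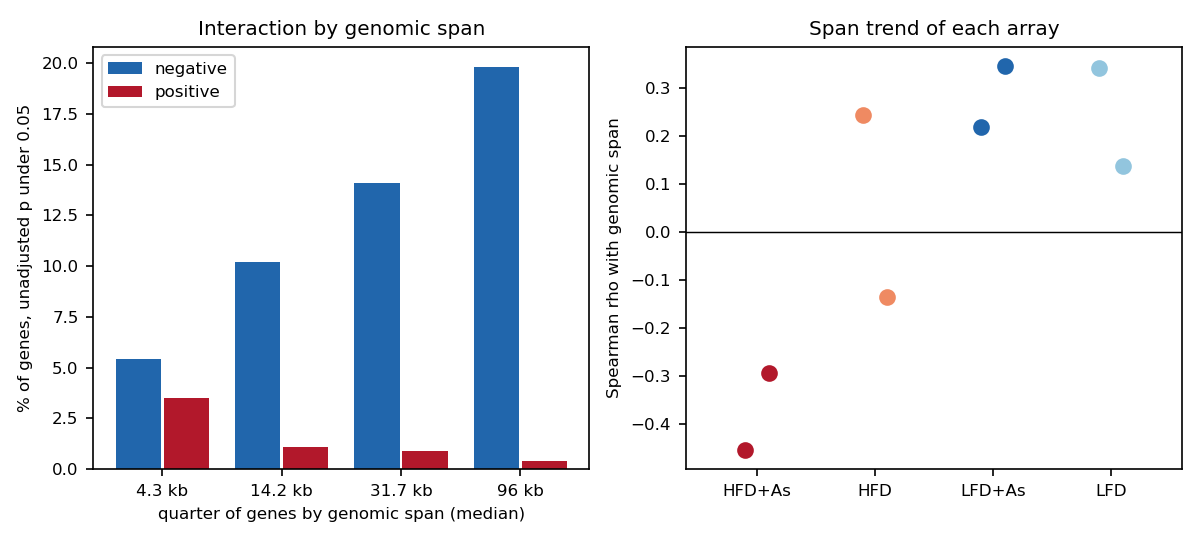
Left, the share of genes (y axis, percent) with an unadjusted interaction p under 0.05, negative (blue) and positive (red), in 4 equal groups of genes by genomic span; right, the rank correlation of each array's deviations from the gene mean with span, with 1 point per array. Negative shares were lowest in the shortest group (5.4%) and highest in the longest (19.8%), and the HFD+As arrays have the lowest correlations.

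Long and short genes differed accordingly. Of 32 chromatin and RNA regulators with long transcripts (median span 108.8 kb), 31 were negative with a median of -0.38, -0.28 with the span trend removed and -0.19 with centred arrays. At an unadjusted p under 0.05 there were 16 (12.4% of all genes were negative at that p). The list's median was -0.26 without HFD pool 1 and -0.56 without HFD pool 2. Ep300, a histone acetyltransferase gene, had 8.52 and 8.90 in HFD+As, 9.60 and 9.25 in HFD, 9.48 and 9.66 in LFD+As, and 9.66 and 9.49 in LFD, the HFD+As pools being lowest, with an interaction of -0.71 (95% interval -1.18 to -0.24, adjusted p = 0.243). Kmt2a, a histone methyltransferase gene, was at -0.67 (adjusted p = 0.207). Small nucleolar RNAs, short RNAs that guide modification of ribosomal RNA, were at the other end, with 35 of 38 positive and a median of 0.44, which was 0.11 with the span trend removed and 0.23 without HFD pool 1. At an unadjusted p under 0.05 and positive there were 11 (1.5% of all genes), 4 without HFD pool 1 and 18 without HFD pool 2. Snord57 had 10.31 and 9.18 in HFD+As, 8.74 and 8.82 in HFD, 7.51 and 7.55 in LFD+As, and 7.90 and 7.89 in LFD, with an interaction of 1.32 (adjusted p = 0.191), 0.76 without HFD+As pool 1 and 1.89 without HFD+As pool 2. The acute phase, chemokine, unfolded protein and metallothionein lists hold short genes and kept their medians with the trend removed, at -0.69, -0.46, -0.37 and -0.26.

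Proteasome subunits were positive in 25 of 31 cases with a median of 0.15, which was -0.04 without HFD+As pool 2 and 0.29 without LFD+As pool 1. Arsenite gave values above 0 in 30 members on the high-fat diet and in 31 on the low-fat diet. Psma7, a subunit of the core particle, was at 0.58 (adjusted p = 0.305) and at 0.37 without LFD pool 1, with 10.37 and 10.45 in HFD+As, 9.48 and 9.64 in HFD, 9.64 and 9.25 in LFD+As, and 9.37 and 8.97 in LFD. The HFD+As pools were highest for Psma7. Collagens and matrix genes were negative in 27 of 27 cases with a median of -0.17, which turned to 0.02 with centred arrays and was -0.10 without HFD pool 1. Ribosomal protein and oxidative phosphorylation genes had medians of 0.09 and 0.02 that turned to -0.04 in both with the span trend removed, and that lay between -0.01 and 0.17 and between -0.05 and 0.13 with 1 array left out.

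Markers of some other liver cells also had negative interactions. All 9 macrophage markers tested, of 10 listed, were negative with a median of -0.41 (-0.22 with centred arrays, -0.23 without HFD pool 1), and their summed linear signal was 8522 and 7192 in HFD+As, 10605 and 10053 in HFD, 7590 and 9354 in LFD+As, and 9228 and 8897 in LFD. The HFD pools were highest, and the part of macrophage number in the values of immune genes was not tested. Cd68, a lysosomal protein of macrophages, was at -0.53 (adjusted p = 0.252), and Cd5l, secreted by them, at -0.55 (adjusted p = 0.264). Sinusoidal endothelial markers had a median of -0.32 with 7 of 8 negative, -0.07 without HFD pool 1 and -0.55 without HFD pool 2, and stellate cell markers of -0.14, which turned to 0.05 with centred arrays and was -0.07 without HFD+As pool 2. The 2 neutrophil markers tested, of 7 listed, summed to 321 and 328 in HFD+As and 284 and 298 in HFD. Their sums were 245 and 267 in LFD+As, and 229 and 246 in LFD. These sums are given as a description, because both genes were dim and may be background. S100a9 had means of 7.595 in HFD+As, 7.188 in HFD, 6.959 in LFD+As and 6.789 in LFD. Its low-fat means lay under the filter value, so S100a9 entered the test through the high-fat groups. Csf3r had means of 7.033, 7.164, 7.034 and 6.983 in the same order, with HFD highest. Hepatocyte genes had a median of 0.01 over 5 markers, and of 0.20 with centred arrays. The albumin gene Alb lay between 14.4 and 14.5 in all arrays, near the highest value in the table, 14.8.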

How the data were processed

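Per the submitters' processing notes the authors used Affymetrix Expression Console 1.0, and the deposited table gives a log2 signal for every transcript cluster; the background correction, normalization and summary methods are not given in the sources used here. The table holds no detection calls, so a dim signal may be background. Symbols came from the platform annotation, and spans and promoters from RefSeq on GRCm38.p6 (21766 clusters with 1 symbol matched). The brightest cluster stood for its gene, and the 60% of genes with the highest means were tested, with no pseudocount. Array medians lay between 7.08 and 7.18 over all clusters. Over the tested genes they were 8.32 and 8.35 in HFD+As, 8.58 and 8.47 in HFD, 8.47 and 8.48 in LFD+As, and 8.56 and 8.39 in LFD. Centring used these medians over the tested genes.

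Using limma 3.58.1 in R 4.3.3, 4 group means were fitted to 8 arrays (4 residual and 9.32 prior degrees of freedom; median SE of the interaction 0.179), with Benjamini-Hochberg adjustment over all 11963 genes at 0.05. The fit was tested on simulated data. The number of arrays limits the precision. Named genes were the 8 of each sign with the smallest p (predicted genes left out), up to 2 members per list by smallest p, the largest changes past the test, where there were any, and fixed genes; 28 more were chosen after their values were seen. The members, the 40 lists (10 of them cell markers) and the rules were chosen with earlier results of these data known. Same-numbered pools did not deviate together (correlations between -0.217 and 0.179), and the labels say that mice were divided at random, so pools were not paired. Alternatives were another filter on low signals, other scalings, a prior variance that follows the mean, the span trend removed, a linear scale, other cluster rules, a replicate block, a fold threshold and each array left out.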

Additional observations from a re-analysis of the deposited data

How the results depend on the processing

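With n = 2 pools per group, the interaction count of 0 moved to 6 with the top 40% of genes by mean (lowest adjusted p 0.035) and to 12 with a prior variance that follows the mean, and lay between 0 and 23 with any 1 array left out; it was 0 with no filter, quantile normalization, centred arrays, the span trend removed, a linear scale, every cluster on its own, the median over clusters and a 2-fold threshold. Slc10a2 was called in 6 of these 19 settings, and Lcn2, Chrm3 and Ppard in 5. The replicate block gave 0 calls for the interaction (lowest adjusted p 0.0523, 1555 genes at an unadjusted p under 0.05), 230 for arsenite on the high-fat diet, and 0, 106 and 1 (interaction, high-fat, low-fat) for the block with the span trend removed. Arsenite on the high-fat diet gave 434 calls as reported, 29 with no filter, 104 with quantile normalization, 68 with centred arrays, 216 with the span trend removed, 74 on the linear scale and 20 with every cluster on its own, and 24 to 1121 with any 1 array left out. Arsenite on the low-fat diet gave 8 as reported, 1 with no filter or every cluster, 5 with quantile normalization or centred arrays, 13 with the prior variance following the mean, and 0 to 26 with any 1 array left out.

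Of 2395 values of the 127 named genes in other settings, 2310 kept sign and side of the threshold, 67 passed it and 18 changed sign, all of the last from genes near 0. Alas2 was at 0.055 with quantile normalization, 0.167 with centred arrays, 0.017 with the span trend removed, with or without the block, and between -0.352 and 0.306 with 1 array left out (0.000, 0.210 and 0.229 among them). Centring gave Apoa1 0.111, Csf3r 0.009 and Krt7 0.003. Nkg7 was at -0.010 with the span trend removed, with or without the block, and between -0.021 and 0.461 with 1 array left out. With 1 array left out Cyp7a1 lay between -0.045 and 0.603 (-0.022 without HFD replicate 1) and Cps1 between -0.027 and 0.150 (-0.013 without HFD+As replicate 2). The cause of these changes was not tested. Without detection calls, signals near 7 may be background, which limits what dim genes such as Clec2h, Chrm3 and Cyp2b9 show. The same limit holds for Saa1 in LFD.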
